A study of Caenorhabditis elegans with 14 samples.

Results

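The change in miRNA abundance between embryos and L4 larvae of *Caenorhabditis elegans* animals that lack HRPK-1 was read from 6 small RNA libraries, 3 of *hrpk-1(zen17)* embryos and 3 of *hrpk-1(zen17)* L4 larvae, among the 14 libraries of the study. A miRNA strand was kept where it had at least 10 counts in at least 3 of these 6 libraries, which held for 149 of the 214 guide strands and 89 of the 157 star strands in the table. HRPK-1 is the worm homolog of the mammalian RNA-binding protein hnRNPK, and it co-precipitates with the miRNA Argonaute ALG-1. The *zen17* allele is a Cas9-made deletion of the *hrpk-1* gene after which no HRPK-1 protein was seen on a blot. Both stages came from this 1 mutant line in the N2 background, grown on NGM plates seeded with OP50 bacteria at 20 °C. Wild type N2 embryos and L4 larvae, 3 libraries each, were raised the same way and serve as the reference for normal development. RNA came from whole animals, so that fewer cells of a type and less RNA per cell cannot be told apart. The age of the embryos is not given in the sources used here. No label says that the replicates are separate cultures, and the p-values then measure the spread between these libraries only, which may be technical. Small RNA counts do not show whether *hrpk-1* mRNA is missing, so the genotype could not be checked here.

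A miRNA is cut from a hairpin precursor as a duplex. The guide strand is loaded into an Argonaute, where it directs the repression of mRNAs that match its seed, and the other strand (star, miRNA*) is usually degraded. In the worm, larval time is set by miRNAs that come on in sequence: lin-4 ends the programme of the first larval stage, the let-7 sisters miR-48, miR-84 and miR-241 act on the next step, and let-7 promotes the switch from larval to adult fates of the skin. The mir-35 family belongs to the other end of development: it is abundant in oocytes and embryos and embryos need it to survive.

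The 3 embryo libraries held 10306656, 10565291 and 6980254 miRNA counts and the 3 L4 libraries 15112868, 15114802 and 18574237. A level is given below in ppm, counts per 1000000 miRNA counts of a library, and 3 counts, the limit that a count of 0 allows, came to between 0.162 and 0.430 ppm. Of the 133 strands left out, 43 had 0 counts in all 6 libraries and 90 had a few, with 47 as the highest single count. Among the strands kept, 171 had at least 10 counts in every library, 17 reached 10 counts in the 3 L4 libraries and in no embryo library, and 9 did the reverse. The stages were set against each other in edgeR (quasi-likelihood, TMM scaling), p-values were adjusted by Benjamini-Hochberg over all strands kept, with 0.05 as the threshold. Changes are log2 values of L4 over embryo, given with their SE.

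Most of the measured miRNAs differed between the stages of the mutant. Of the strands kept, 173 passed the threshold (72.7%), 81 higher in L4 (34%) and 92 lower (38.7%). The 3 embryo and the 3 L4 libraries did not overlap for 181 strands (76.1%). The called changes were large: 55 of the rises and 61 of the falls were at least 2 on the log2 scale, and 19 and 11 were at least 6. Guide strands went both ways, with 53 higher, 57 lower and 39 not called, as did star strands, with 28 higher, 35 lower and 26 not called.

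The mir-35 family filled most of the embryo counts, so the changes were also read on other scales. The median change of all strands kept was -0.27 with TMM, 0.025 with RLE size factors, -0.19 against total miRNA counts and -1.46 against total counts without the mir-35 family guides. The last of these scales moves the median by -1.19. On it 51 strands were called higher and 138 lower, in place of 81 and 92, and 7 of the 81 rises changed sign, all with a TMM change of at most 1.19, while 0 of the 92 falls did. With RLE or total counts 0 of the 173 calls changed sign. Log2 changes and calls below are on the TMM scale, and a strand whose direction turns on another scale is marked where it is named. Levels in ppm, the overlap of libraries and family shares are on total miRNA counts. The TMM factors of the 6 libraries ran from 0.818 for L4 replicate 1 to 1.53 for L4 replicate 2.

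**Figure D1:**
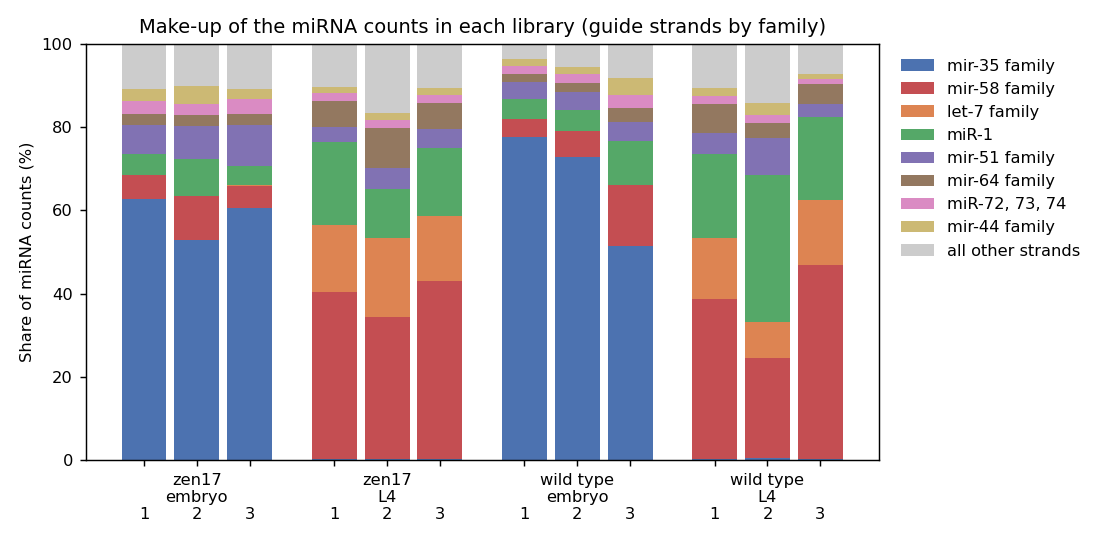
Share of each library's miRNA counts (vertical axis, in %) taken by the guide strands of 7 families and of miR-1, with all other strands in grey, in the 6 zen17 libraries and the 6 wild type libraries. The mir-35 family takes between 52.9% and 62.8% of the zen17 embryo libraries and about 0.2% of the zen17 L4 libraries, where the mir-58 and let-7 families and miR-1 take its place.

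The families that held most of the miRNA counts differed between the stages. The 8 mir-35 family guides took 62.8%, 52.9% and 60.5% of the counts in the embryo libraries and 0.201%, 0.218% and 0.209% in the L4 libraries. In the other direction, the mir-58 family rose from 5.77%, 10.6% and 5.48% to 40.2%, 34.2% and 42.9%, and the let-7 family from 0.0225%, 0.0416% and 0.0300% to 16.2%, 18.9% and 15.6%. For each of these 3 families the embryo and L4 libraries did not overlap, and the exact two-sided permutation test gave p = 0.1, the smallest that 3 libraries against 3 allow. A share is a part of a whole, so a fall of 1 family raises the shares of the others with no change in their own number of molecules. The number of strands needed to reach 90% of the counts was the same, 17 in embryos and 17 in L4 larvae, with miR-35-3p (29.2% on average) on top in the first and miR-58-3p (26.5%) in the second. After miR-35-3p the most abundant embryo guides were miR-37-3p, miR-40-3p, miR-39-3p and miR-1-3p, and after miR-58-3p the most abundant L4 guides were miR-1-3p, miR-48-5p, miR-81-3p and miR-82-3p. Star strands together made up between 0.162% and 0.265% of embryo counts and between 0.257% and 0.392% of L4 counts.

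All 8 mir-35 family guides fell, on every scale. The median change of the family was -8.42 against -0.27 for all strands. miR-35-3p, the most abundant miRNA of the embryos, stood at 337440, 238412 and 299622 ppm in the 3 embryo libraries and at 205, 370.2 and 245.7 ppm in the 3 L4 libraries. Its change was -10.23 ± 0.48, adjusted p = 2.63e-09. miR-37-3p fell furthest, from 131435, 122940 and 163250 to 45.8, 76.9 and 61.97 ppm (-11.28 ± 0.50, adjusted p = 2.63e-09). This was the largest change of any guide strand tested.

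The members were unequal in amount and in the size of their fall. miR-39-3p went from 62208 ± 5024 to 78.0 ± 18.6 ppm (mean ± SD, n = 3 each; log2 change -9.76) and miR-40-3p from 65567 ± 11830 to 529 ± 96.8 ppm (-7.02). Of the less abundant members, miR-36-3p changed by -8.22, miR-38-3p by -7.35 and miR-41-3p by -8.62, and miR-41-3p was down to 23, 18 and 15 counts in the 3 L4 libraries. miR-42-3p fell least: it held 17950, 29047 and 17124 ppm in embryos and still 1244, 981 and 1151 ppm in L4 larvae (-4.19 ± 0.38, adjusted p = 8.15e-07). This member alone made up 3.73% of the family's counts in embryos and 54.0% in L4 larvae, while miR-35-3p went from 49.4% to 12.98%. The 7 hairpins from mir-35 to mir-41 lie side by side on chromosome II, from base 11537608 to 11538404 in WBcel235, inside an intron of *Y62F5A.9* and on the opposite DNA strand. The hairpin of mir-42 sits apart on the same chromosome, from base 11889811 to 11889905, next to mir-43 and mir-44.

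The neighbours of mir-42 fell too. miR-43-3p, of the mir-2 family, went from 51.2, 149 and 50.3 to 4.37, 3.51 and 3.18 ppm (-4.41 ± 0.44, adjusted p = 1.81e-06), a fall about as large as that of miR-42-3p. miR-44-3p fell less, from 13275, 20115 and 11269 to 6782, 6566 and 7533 ppm (-1.06 ± 0.32, adjusted p = 0.00961). Its reads cannot be told from those of miR-45-3p, a nearby gene on the other DNA strand with almost the same counts in each library, so this value belongs to both genes together. Star strands of the mir-35 family changed in the direction of their guides: all 8 were lower in L4 larvae, with changes from -6.64 to -3.002. Over all star strands 35 of the 89 tested were lower. Several of the 8, miR-39-5p among them, reached the count minimum through their embryo libraries, which favours a fall among those tested. Of the 8, miR-41-5p fell furthest, from 117, 89.9 and 115.5 to 0.794, 2.12 and 0.861 ppm (-6.64). miR-39-5p went from 17.3, 36.5 and 19.6 to 0.529, 0.728 and 0.269 ppm (-5.65).

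**Figure D2:**
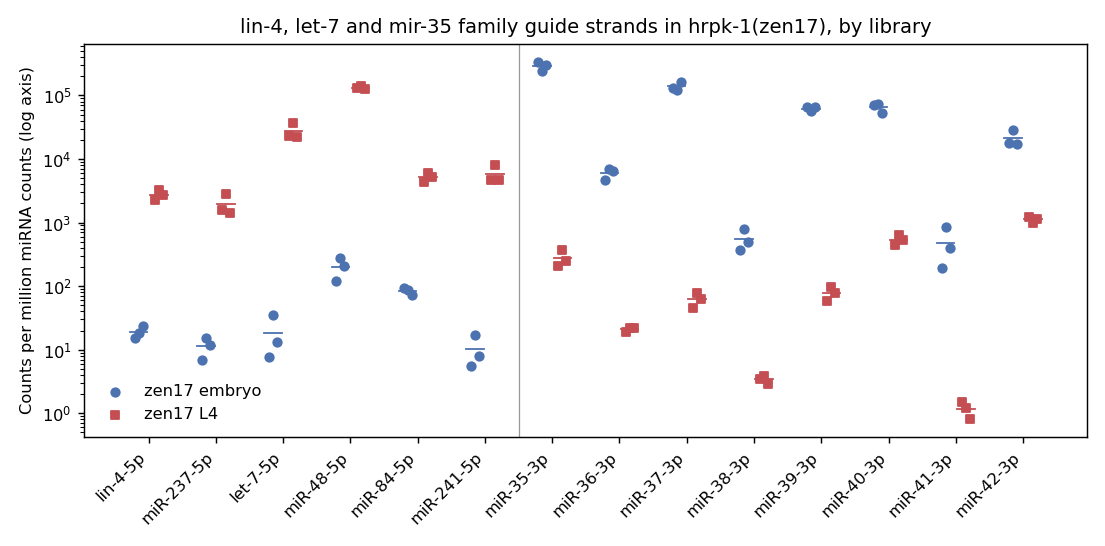
Level of the lin-4, let-7 and mir-35 family guide strands in each zen17 library, in ppm on a log axis. Circles are the 3 embryo libraries, squares the 3 L4 libraries and lines the means. Left of the vertical line every L4 library lies above every embryo library, and right of it every L4 library lies below.

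All 4 let-7 family guides and both lin-4 family guides rose, on every scale. Over all tested guides 35.6% were higher on the TMM scale. let-7-5p itself was at 7.76, 34.6 and 13.04 ppm in embryos and at 23176, 36361 and 21991 ppm in L4 larvae (10.53 ± 0.55, adjusted p = 4.46e-09). miR-48-5p, which made up 77.7% of the family's L4 counts, rose from 119, 279 and 205 to 129286, 138721 and 124462 ppm (9.35 ± 0.48, adjusted p = 4.27e-09). After miR-58-3p and miR-1-3p it was the most abundant guide of the L4 larvae on average. miR-241-5p, whose hairpin shares a stretch of chromosome V with that of mir-48 (bases 14364412 to 14366283), rose from 5.53, 16.8 and 8.02 to 4719, 7972 and 4649.8 ppm (9.12 ± 0.43, adjusted p = 2.63e-09). Both neighbours moved by about the same amount.

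miR-84-5p rose least of the family, from 92.5, 85.7 and 73.1 to 4407, 6001 and 5121 ppm (5.87 ± 0.36, adjusted p = 1.75e-08). lin-4-5p, the first heterochronic miRNA, rose from 15.4, 18.1 and 23.2 to 2237, 3219.8 and 2672 ppm (7.07 ± 0.40, adjusted p = 8.70e-09), and miR-237-5p, which shares its seed, from 6.79, 15.2 and 11.9 to 1568, 2851 and 1395 ppm (7.31 ± 0.38, adjusted p = 4.46e-09). These 6 larval guides and the 8 mir-35 guides are the markers by which the stage labels can be checked, and for each of the 14 all 3 L4 libraries lay on the side of all 3 embryo libraries that the labels give. Of the 3 more distant let-7 relatives, miR-794-5p and miR-795-5p, neighbours on chromosome I, rose by 3.78 and 3.87, the first of them named after its values were seen. miR-793-3p did not pass the test (0.68 ± 0.37, adjusted p = 0.111), and its change was -0.65 on the scale without the mir-35 family.

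Star strands of this group came up from few or no embryo counts. let-7-3p, named after its values were seen, had 0 counts in the 3 embryo libraries and 174, 131 and 195 counts in the 3 L4 libraries, at least 95.1-fold higher when the embryos are set at 3 counts over the group. miR-84-3p had 1 count in each embryo library and 321, 360 and 333 in the L4 libraries, a ratio of 193 per library total with a 95% counting interval from 65.8 to 937. PCR can copy 1 molecule many times, so such bounds and intervals describe the error of counting and nothing more.

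Some of the steepest rises lay outside the known timing miRNAs. miR-77-3p rose from 4.56, 10.4 and 8.31 to 3981, 9366 and 3577 ppm (9.34 ± 0.44, adjusted p = 2.63e-09). Its star strand miR-77-5p had 0 counts in the 3 embryo libraries and 945, 2925 and 1087 in the 3 L4 libraries, at least 943-fold higher with the embryos at 3 counts over the group. miR-85-3p was close to absent in embryos, at 0.485, 1.42 and 0.716 ppm, and reached 445, 1143 and 386 ppm in L4 larvae (9.37 ± 0.45, adjusted p = 2.63e-09). For all 3 strands L4 replicate 2 was the highest library by far, and each L4 library was well above each embryo library.

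Some pairs of neighbouring hairpins rose together, while in others, such as miR-230-3p and miR-791-3p on X, only 1 guide was called. miR-786-3p, which is needed for the defecation rhythm of the intestine, rose from 4.46, 8.23 and 3.58 to 1104, 2263 and 1107 ppm (7.99 ± 0.37, adjusted p = 2.63e-09), and its neighbour on the X chromosome, miR-240-3p, rose by 5.91 ± 0.42. On chromosome V, miR-357-3p rose by 5.45 ± 0.34. Its neighbour miR-358-3p had 3, 0 and 0 counts in embryos and 296, 531 and 472 in L4 larvae, a ratio of 247.1 with a 95% counting interval from 84.4 to 1199.9. miR-247-3p and miR-797-5p, neighbours on X, rose by 5.89 and 2.19, both from low levels, with embryo means of 0.77 and 3.36 ppm. miR-797-5p had 65, 11 and 19 counts in embryos. Its change was 0.91, with no call, on the scale without the mir-35 family.

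miR-70-3p rose from 53.2, 107 and 61.5 to 8304, 11069 and 10120 ppm (7.06 ± 0.38, adjusted p = 4.77e-09). The hairpin (chromosome V, bases 6665536 to 6665635) sits within *pmp-5*, in an intron and on the gene's own DNA strand. miR-246-3p, reported to favour long life, rose from 21.7, 33.4 and 15.2 to 539.6, 2226 and 530.1 ppm (5.29 ± 0.43, adjusted p = 2.51e-07), with L4 replicate 2 far above the other L4 libraries. miR-71-5p, which also extends life, rose from 6848, 10591 and 4824 to 19994, 38295 and 18574 ppm (1.69 ± 0.29, adjusted p = 0.000163), with 0.54 and no call on the scale without the mir-35 family. miR-235-3p, the worm relative of mammalian miR-92 that holds back larval development in starved animals, rose from 385, 169 and 336 to 1842, 5074 and 1779 ppm (2.97 ± 0.43, adjusted p = 4.93e-05).

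**Figure D3:**
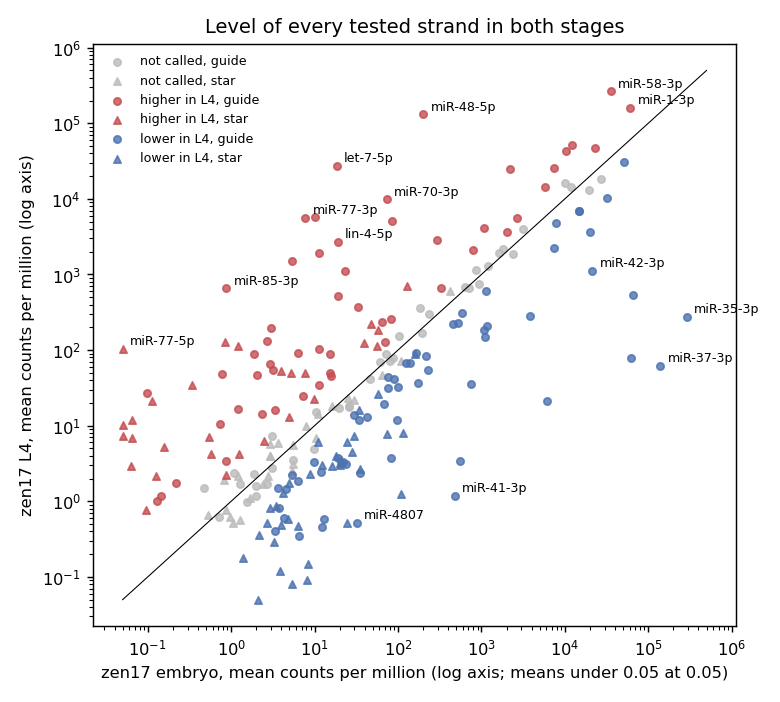
Mean level in zen17 embryos (horizontal axis) and in zen17 L4 larvae (vertical axis) of the tested strands, in ppm on log axes, with means under 0.05 drawn at 0.05. Circles are guide and triangles star strands, red marks strands called higher and blue strands called lower in L4 larvae, grey marks strands not called, and the line marks equal levels. miR-35-3p and miR-37-3p lie far below the line, and miR-48-5p and let-7-5p far above it.

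The mir-58 family, the worm relatives of the fly growth miRNA bantam, was the most abundant family of the L4 larvae. Its 4 tested guides rose, beside 35.6% of all tested guides. The family median was 2.54, against -0.27 for all strands. On the scale without the mir-35 family the family median was 1.26, against -1.46 for all strands, and 3 of the 4 were called higher. miR-58-3p went from 24655, 54780 and 26778 to 296199, 191867 and 308373 ppm (3.03 ± 0.43, adjusted p = 3.98e-05). miR-80-3p rose most, from 2213, 2791 and 1558 to 20385, 28853 and 26330 ppm (3.49 ± 0.32, adjusted p = 8.68e-07), and miR-81-3p rose by 2.05 ± 0.28. miR-82-3p rose least (1.03 ± 0.29, adjusted p = 0.00652). Its call was lost without embryo replicate 3 (adjusted p = 0.05265), and its direction turned to -0.20 on the scale without the mir-35 family.

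miR-1-3p, the miRNA of body wall and pharyngeal muscle, stood at 49301, 86841 and 47346 ppm in embryos and 199855, 119728 and 161723 ppm in L4 larvae (1.49 ± 0.39, adjusted p = 0.00441). It was abundant in both stages, and on the scale without the mir-35 family its change was 0.14 and did not pass. In the mir-64 family, whose 4 hairpins lie together in an intron of *gcn-1* on chromosome III, miR-65-5p rose from 10095, 12158 and 8777 to 36794, 54475 and 36814 ppm (1.96 ± 0.28, adjusted p = 4.11e-05). miR-229-5p, at the end of the same cluster, was at 94.0, 80.5 and 68.2 and 67.5, 79.4 and 66.8 ppm (-0.25 ± 0.31, adjusted p = 0.464), with overlapping libraries and a sign that differed between scales (0.017 with RLE, -1.48 without the mir-35 family).

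The mir-51 family, which is required in embryos for attachment of the pharynx, was abundant in both stages. Of its 6 guides 2 fell (38.7% of all strands did) and 0 rose, with a median of -0.70 beside -0.27 for all strands. On the scale without the mir-35 family all 6 were called lower. miR-51-5p fell from 24828, 34513 and 36888 to 9545, 11711 and 9759 ppm (-1.70 ± 0.32, adjusted p = 0.000370). miR-53-5p had overlapping libraries (0.15 ± 0.31, adjusted p = 0.669), and its change of sign on the scale without the mir-35 family (-0.99) left no direction to report. Among the other guides that were high in embryos, miR-73-3p changed by -2.62 ± 0.38, from 20645, 14250 and 25823 to 3230.5, 4226 and 3386 ppm. Its family member miR-72-5p, whose hairpin lies on chromosome II rather than X, was at 11136, 13723 and 10734 and 13702, 15105 and 14819 ppm and was not called (0.27 ± 0.30, adjusted p = 0.430; -0.98 without the mir-35 family).

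Further falls came from single guides. miR-62-3p fell from 647, 1879.8 and 795.2 to 155, 121 and 164 ppm (-2.79 ± 0.41, adjusted p = 4.87e-05) and miR-49-3p from 961, 1472 and 1066 to 167, 291 and 168 ppm (-2.58 ± 0.27, adjusted p = 2.28e-06). The seed partner of the latter, miR-83-3p, the worm relative of miR-29, moved the other way (1.66 ± 0.31, adjusted p = 0.000370), with 0.38 and no call on the scale without the mir-35 family. miR-4807 fell from 29.9, 29.1 and 37.4 to 0.397, 0.728 and 0.431 ppm (-6.09 ± 0.42, adjusted p = 4.98e-08). It belongs to a run of 9 hairpins on X, of which the 6 tested guides (bases 1872466 to 1879698) all fell, by -6.09 to -1.505. Over all tested guides 38.3% fell. L4 means among the 6 went down to 0.40 ppm, a few counts per library. Such guides were kept through their embryo counts, which favours a fall among those tested. miR-57-5p, a miRNA of the posterior embryo, fell by 2.02 (adjusted p = 0.00421), but its libraries overlapped, with 8876, 2414 and 11046 ppm in embryos and 1751, 3336 and 1636 ppm in L4 larvae. Embryo replicate 2 was the low one, and without L4 replicate 2 the call was lost (adjusted p = 0.0561).

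The miRNAs of neurons looked at were low in both stages. lsy-6-3p, which sets the left identity of the ASE taste neurons, was at 17.5, 43.7 and 16.2 ppm in embryos and 18.0, 15.9 and 19.1 ppm in L4 larvae (-0.45 ± 0.37, adjusted p = 0.293). Its libraries overlapped, and the value was 0.022 without embryo replicate 2, the highest library. miR-124-3p, a marker of sensory neurons, was lower in L4 larvae, at 82.96, 190.2 and 106 against 71.99, 66.2 and 65.6 ppm (-0.85 ± 0.33, adjusted p = 0.0338). The call held in 3 of 14 alternative fits, and it was lost without embryo replicate 2 or 3 or any 1 L4 library (adjusted p from 0.0747 to 0.167). miR-791-3p, which acts in neurons that sense carbon dioxide, had counts of 47, 2 and 31 in embryos and was not called (1.10 ± 0.73, adjusted p = 0.187; -0.079 without the mir-35 family).

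Small changes near the median of all strands were seen for further pairs that share a seed. miR-46-3p changed by -0.81 (adjusted p = 0.0363) and miR-47-3p by 0.77 (adjusted p = 0.0249), in opposite directions. The first call held in 5 of 14 alternative fits, and it was lost without embryo replicate 3 or any 1 L4 library (adjusted p from 0.101 to 0.367). The second changed sign on the scale without the mir-35 family (-0.42). miR-86-5p was at 550.2, 629 and 590.0 ppm in embryos and 272, 347 and 302 ppm in L4 larvae (-1.009 ± 0.29, adjusted p = 0.00673). This call was lost without L4 replicate 1 (adjusted p = 0.0739). miR-75-3p, miR-79-3p, miR-90-3p and miR-232-3p were not called, with changes of 0.38, -0.046, 0.24 and 0.23 that took the sign of the scale chosen.

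Guide and star strands of 1 hairpin mostly changed in the same direction. Both strands were tested for 86 miRNAs, and in 68 of them the signs were the same. Both strands passed the threshold in 49 pairs, in 46 with 1 direction and in 3 with a guide that rose and a star that fell: miR-34, miR-65 and miR-81, named here after their values were seen. miR-34-5p, a conserved miRNA of the stress response, went from 13.2, 20.3 and 12.03 to 59.3, 143 and 62.5 ppm (2.38 ± 0.28, adjusted p = 8.58e-06) while miR-34-3p went from 2.81, 6.15 and 3.44 to 1.06, 1.72 and 1.13 ppm (-1.72 ± 0.40, adjusted p = 0.00217). The count of guide reads per star read is a ratio within a library, so it does not depend on the scale.

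The guide to star ratio differed between the stages in 34 of 86 pairs (39.5%) by limma on log2 ratios with a pseudocount of 0.5, 23 higher and 11 lower in L4 larvae, with a median difference of 0.54. For miR-65 there were 680.1, 400.2 and 542 guide counts per star count in the embryo libraries and 7414, 16804 and 15902 in the L4 libraries (log2 difference 4.56 ± 0.47, adjusted p = 0.000326). The ratio of miR-90 rose from 91.8, 74.2 and 216 to 823, 1134 and 818 (2.999 ± 0.50, adjusted p = 0.00376), with a guide that was not called and a star that fell by 2.64. The ratio of miR-44 rose from 132, 182 and 86.8 to 1485, 504 and 1156 (2.89 ± 0.53, adjusted p = 0.00553), with a guide that fell less than the star, and its guide reads may come from miR-45. Without embryo replicate 3, 16 pairs passed, 12 higher and 4 lower, and without L4 replicate 1 15 were higher.

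In the opposite direction, miR-75 turned over. Its guide miR-75-3p outnumbered the star in each embryo library, by 1.77, 3.31 and 2.88 to 1, and was outnumbered in each L4 library, at 0.334, 0.250 and 0.377 guide counts per star count (-3.01 ± 0.42, adjusted p = 0.00131). It was the 1 pair of 86 whose ratio crossed 1 with all 6 libraries on their side. The star strand rose from 3.78, 4.26 and 3.72 to 29.1, 98.8 and 29.8 ppm (3.48 ± 0.37, adjusted p = 2.84e-06), with L4 replicate 2 far above the others, while the guide was at 6.69, 14.1 and 10.7 and 9.73, 24.7 and 11.3 ppm. In wild type the ratios were 3.07, 0.906 and 2.30 in embryos and 0.663, 1.17 and 0.430 in L4 larvae, from low embryo counts, and they were not tested.

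miR-230 rose on both strands, the guide from 35.7, 29.5 and 33.0 to 316, 468 and 314 ppm (3.36 ± 0.32, adjusted p = 1.22e-06) and the star by 6.44 ± 0.42 from embryo counts of 11, 23 and 3. Its ratio fell from 33.5, 13.6 and 76.7 to 3.62, 3.11 and 3.04 (-3.23 ± 0.60, adjusted p = 0.00553). In the mir-35 family 6 of 8 ratios fell, beside 11 of all 86 pairs. That of miR-39 went from 3749.9, 1544 and 3334 to 111, 132 and 294 (-4.13 ± 0.54, adjusted p = 0.00110). The L4 values of this family rest on few star reads: miR-39-5p had 8, 11 and 5 counts and miR-35-5p, named after its values were seen, 1, 1 and 2 in the 3 L4 libraries. Both stars reached the count minimum through their embryo libraries. With at least 10 counts of both strands in every library, 5 pairs of all miRNAs were lower. None of the 6 mir-35 family pairs can be among them, since each star had fewer than 10 counts in some L4 library.

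**Figure D4:**
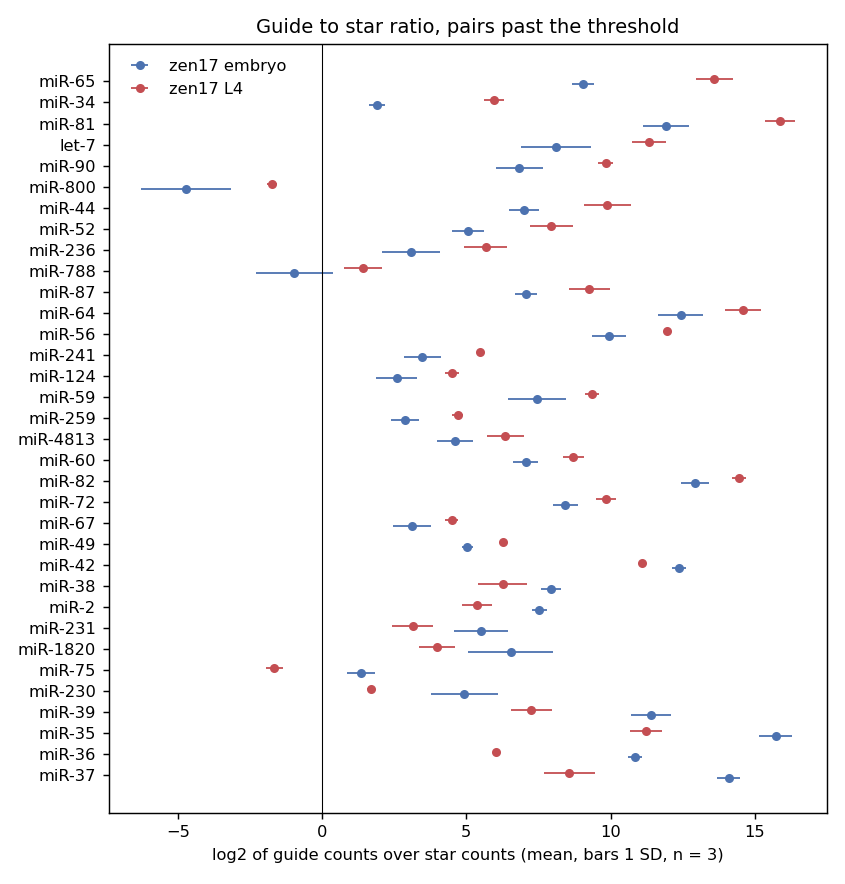
Guide to star ratio of the 34 pairs that passed the threshold, as the log2 of guide counts over star counts (horizontal axis), in zen17 embryos (blue) and L4 larvae (red). Points are means of 3 libraries and bars 1 SD, and the vertical line marks equal counts of both strands. miR-75 moves from 1.35 to -1.66 across this line.

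The wild type libraries set the change in the mutant beside that of normal development. In wild type 166 of 230 strands were called (72.2%), 94 of them higher and 72 lower in L4 larvae. Without wild type L4 replicate 1, 61 were higher and 63 lower, and on the scale without the mir-35 family 54 were higher and 108 lower. Of the strands tested in both genotypes, 203 had the same sign of change and 25 the opposite sign, and the correlation of the log2 changes was 0.939 (Pearson, across strands, which are not independent; no library is shared). Of the strands called in zen17 and tested in both, 86.4% were called in wild type, and of those called in wild type 88.0% were called in zen17. The family medians were -8.65 for mir-35 and 9.52 for let-7 in wild type, against -8.42 and 9.23 in zen17.

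The difference between the change in zen17 and that in wild type was tested as an interaction of genotype and stage over 12 libraries. It passed for 12 of 250 strands (4.8%), with a log2 change of L4 over embryo that was higher in zen17 for 2 and lower for 10. Across alternatives the count ran from 4, with at least 10 counts in every library, to 18 with DESeq2. No member of the mir-35 or let-7 families was among the 12.

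miR-70-3p had the larger rise in the mutant. In wild type it went from 172, 359.8 and 515 to 4799, 1188 and 5048 ppm (3.52 ± 0.65), against 7.06 in zen17, a difference of 3.73 ± 0.73, adjusted p = 0.00374. Each zen17 embryo library lay below each wild type embryo library, and each zen17 L4 library above each wild type L4 library. The second strand, miR-74-5p, fell in both genotypes and less so in zen17, from low counts of 28, 25 and 21 in zen17 embryos (-2.47 against -5.38, difference 3.12 ± 0.85, adjusted p = 0.0456). It is a star strand named here after its values were seen, and the call was lost with 9 of the 12 libraries left out in turn, the exceptions being wild type embryo replicate 3, wild type L4 replicate 3 and zen17 embryo replicate 1.

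lin-4-5p had the smaller rise in the mutant. Wild type embryos held 2.11, 2.33 and 5.21 ppm and wild type L4 larvae 3574, 4390.1 and 2029 ppm (9.85 ± 0.40), so the difference was -2.58 ± 0.40, adjusted p = 0.000699. The L4 levels of both genotypes overlapped, whereas each zen17 embryo library was above each wild type embryo library. Of the other larval guides, miR-84-5p (11.2, 11.2 and 46.9 ppm in wild type embryos) and miR-237-5p (1.74, 2.46 and 3.65 ppm) were likewise higher in each zen17 embryo library. In contrast, let-7-5p (21.1, 7.003 and 29.2 ppm), miR-48-5p (146, 118 and 289.7 ppm) and miR-241-5p (6.33, 4.67 and 8.86 ppm) overlapped between the embryos of both genotypes. The part of embryo age in these differences was not tested.

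Of the 12 strands 4 came from the mir-238 family. All 3 of its guides and 1 star passed the interaction test. In wild type miR-238-3p, a miRNA linked to adult lifespan, rose by 3.44, from 227.8, 324 and 586 to 5333, 5977 and 2638 ppm. In zen17 it was already at 2503, 3195 and 2263 ppm in embryos and reached 4353, 7744 and 4715 ppm in L4 larvae (0.97 ± 0.26, adjusted p = 0.00450, but -0.19 on the scale without the mir-35 family), a difference of -2.24 ± 0.37, adjusted p = 0.000906. miR-239a-5p rose by 4.84 in wild type, from 0.459, 0.519 and 0 to 13.6, 32.0 and 10.8 ppm. In zen17 it was at 12.8, 33.7 and 13.2 ppm in embryos and 14.4, 25.2 and 11.7 ppm in L4 larvae, with no call (-0.27 ± 0.32, adjusted p = 0.464; 0.048 with RLE) and a difference of -4.95 ± 0.66, adjusted p = 0.000289.

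Its star miR-239a-3p did likewise, with 3.49 in wild type, 0.22 in zen17 (-1.03 on the scale without the mir-35 family) and a difference of -3.10 ± 0.58, adjusted p = 0.00261. miR-239b-5p had 0 counts in the 3 wild type embryo libraries, where 3 counts correspond to 0.275 to 1.56 ppm, and 3.10, 10.4 and 2.72 ppm in zen17 embryos. Its L4 levels were 2.45, 2.25 and 1.94 ppm in zen17 and 1.66, 0.804 and 1.47 ppm in wild type. The interaction passed (adjusted p = 0.00765), with a fitted size that rests on the 0 counts. Its fall within zen17 (adjusted p = 0.0333) held in 6 of 14 alternative fits. It was lost without embryo replicate 2 or any 1 L4 library (adjusted p from 0.0842 to 0.25).

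Further strands rose in both genotypes, but less in the mutant. miR-230-3p went from 1.56, 1.56 and 4.17 to 316, 913 and 181 ppm in wild type (7.33 ± 0.48), against 3.36 in zen17, a difference of -3.77 ± 0.53, adjusted p = 0.000289. miR-5592-3p rose by 7.30 in wild type and 3.71 in zen17, a difference of -3.37 ± 0.86, adjusted p = 0.0312, which was lost without wild type embryo replicate 1 or 2, wild type L4 replicate 3, zen17 embryo replicate 2 or 3, or zen17 L4 replicate 3 (adjusted p from 0.0519 to 0.128). For both, each zen17 embryo library was above each wild type embryo library, while the L4 libraries of the genotypes overlapped. miR-34-5p rose by 4.85 in wild type, from 1.28, 2.20 and 5.21 to 83.8, 127 and 51.2 ppm, against 2.38 in zen17, a difference of -2.23 ± 0.46, adjusted p = 0.00563, which did not pass against total counts with or without the mir-35 family (adjusted p = 0.0874 and 0.0553).

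The last of the 12 were both low in counts and named after their values were seen. miR-784-5p had 0 counts in the 3 wild type embryo libraries and 5, 15 and 2 in zen17 embryos, and its L4 levels were 7.36, 13.3 and 7.59 ppm in wild type and 10.9, 10.98 and 9.48 ppm in zen17 (interaction adjusted p = 0.0457). This call was lost with 9 of the 12 libraries left out in turn, the exceptions being zen17 embryo replicates 1 and 3 and zen17 L4 replicate 1. miR-2208b-3p was called in opposite directions, with a rise of 1.96 in wild type, from 0.275, 0.389 and 0.521 to 2.05, 2.08 and 1.47 ppm, and a change of -1.84 in zen17, from 5.72, 9.65 and 3.72 to 2.05, 2.38 and 1.08 ppm. The difference was -3.64 ± 0.68, adjusted p = 0.00261. The differences of lin-4-5p, miR-230-3p, miR-70-3p, miR-2208b-3p and the 4 strands of the mir-238 family kept their call in every alternative in which they were tested.

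**Figure D5:**
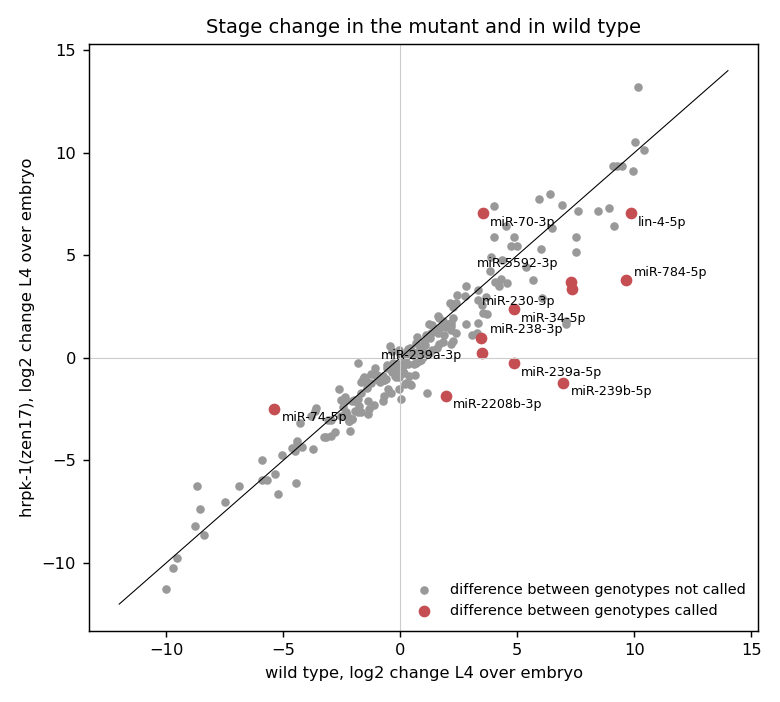
Log2 change of L4 over embryo in wild type (horizontal axis) and in hrpk-1(zen17) (vertical axis) for the strands tested in both, with the line of equal change. Red points are strands whose change differed between genotypes by the interaction test. Most strands lie along the line, and the called mir-238 family members lie below it, between -1.21 and 0.97 in the mutant.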

How the data were processed

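The study measured miRNAs by small RNA sequencing (gel size selection, NEXTflex kit, Illumina NextSeq). The authors deposited a table of raw counts, whole reads per mature strand with guide and star marked and without normalization. Per the submitters' processing notes they used cutadapt 1.15 and Bowtie. The genome build, the source of the miRNA models and the handling of reads with several matches are not given in the sources used here. The authors tested the same counts with DESeq, and those results were not used.

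Levels (ppm) are counts divided by the library's total in the table. The 6 zen17 libraries were compared in edgeR 4.0.16 (R 4.3.3; TMM, quasi-likelihood test, Benjamini-Hochberg, threshold 0.05, on strands that reached 10 counts in 3 or more libraries), and the 6 wild type libraries and the interaction over 12 libraries likewise. The SE was derived from the test statistic. Guide to star ratios used limma 3.58.1 (pseudocount 0.5, 86 pairs), and shares an exact two-sided permutation test. The fits were repeated with RLE size factors, DESeq2 1.42.0, total counts with or without the mir-35 family, other count filters, a replicate block, a fit over all 14 libraries (the only use of the 2 *hrpk-1(tm5522)* libraries), leave-one-out fits and, for ratios, a pseudocount of 5. The code was tested on simulated counts.

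Strands named in the text are the 10 largest rises and falls without overlap and averaging 100 counts or more, the 5 most abundant guides of each stage, the let-7, lin-4 and mir-35 families, strands the study names, called interactions (at most 5 each way) and ratios (3 each way) under the same minimum, and the extreme members of each other family. Others are marked as chosen after their values were seen. The members and lists were chosen with earlier results of these data known. Positions are from Ensembl release 115 on WBcel235, where 206 of 214 miRNAs were found by name; those on 1 DNA strand within 10000 bases count as neighbours. Figures were drawn with matplotlib 3.10.9.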

Additional observations from a re-analysis of the deposited data

Results flagged for a closer look

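For 12 strands the change from embryo to L4 larva differed between *hrpk-1(zen17)* and wild type in the test of that difference (edgeR, interaction of genotype and stage). The difference, zen17 minus wild type on the log2 scale, was 3.73 ± 0.73, adjusted p = 0.00374 for miR-70-3p, the 1 of the 12 with a larger rise in the mutant. It was -2.58 ± 0.40, adjusted p = 0.000699 for lin-4-5p and -3.77 ± 0.53, adjusted p = 0.000289 for miR-230-3p. In the mir-238 family it was -2.24 ± 0.37, adjusted p = 0.000906 for miR-238-3p, -4.95 ± 0.66, adjusted p = 0.000289 for miR-239a-5p and -3.10 ± 0.58, adjusted p = 0.00261 for miR-239a-3p. For miR-239b-5p, with 0 counts in wild type embryos, the fitted value was -8.12 ± 1.69, adjusted p = 0.00765, and it is no bound. For miR-5592-3p it was -3.37 ± 0.86, adjusted p = 0.0312, for miR-34-5p -2.23 ± 0.46, adjusted p = 0.00563 and for miR-2208b-3p -3.64 ± 0.68, adjusted p = 0.00261. For miR-784-5p, also with 0 counts in wild type embryos, the fitted value was -5.79 ± 1.55, adjusted p = 0.0457, and for miR-74-5p, which fell less in the mutant, it was 3.12 ± 0.85, adjusted p = 0.0456. In 10 of the 12, miR-70-3p and miR-74-5p being the exceptions, the embryo level was higher in each zen17 library than in each wild type library. The test that picked the 12 itself uses these embryo levels, so this count in part restates the choice and is no separate result. The same count over all tested strands was not taken.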

How the results depend on the processing

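Of 79 strands named for the zen17 comparison, 54 kept their direction and their side of the threshold in every alternative tried. None of the called lin-4, let-7 or mir-35 family guides was among the other 25. With each library left out in turn, the number of called strands ran from 143 to 181 (70 to 96 higher, 73 to 85 lower). The wild type calls ran from 61 to 91 higher and from 60 to 67 lower, the interaction calls from 9 to 15 (1 to 4 higher, 8 to 13 lower) and the ratio calls from 16 to 37 (12 to 27 higher, 4 to 11 lower). The cause of these differences was not tested. Family shares moved by less than 1 SD. With 1 of 3 libraries left out a mean cannot move that far, so this part of the check could not fail. Shares of the guide counts alone could have moved further and also stayed within 1 SD.

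On the scale without the mir-35 family 51 zen17 strands and 54 wild type strands were higher. Reversed there were miR-82-3p (-0.20), miR-239a-3p (-1.03), miR-90-3p (-0.95), miR-75-3p (-0.72), miR-793-3p (-0.65), miR-53-5p (-0.99), miR-238-3p (-0.19), miR-72-5p (-0.98), miR-47-3p (-0.42), miR-232-3p (-1.03) and miR-791-3p (-0.079). By construction this scale lowers all changes. With RLE and with DESeq2, miR-239a-5p (0.048 and 0.049), miR-229-5p (0.017 in both) and miR-79-3p (0.20 in both) turned positive. They did so as well with at least 10 counts in every library (0.069, 0.046 and 0.25), and miR-79-3p also in the fit over all 14 libraries (0.084). Without a count filter miR-53-5p gave -0.017. With a library left out, miR-239a-5p ran from -0.44 to 0.27, miR-79-3p from -0.29 to 0.47, miR-229-5p from -0.33 to 0.082, miR-239a-3p from -0.045 to 0.93 and lsy-6-3p from -0.63 to 0.023, all of them not called on the main scale.

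With at least 10 counts in every library, 101 wild type strands were called, 50 of them higher, and 4 interactions, 1 higher and 3 lower. For ratios 5 pairs were lower under this filter. The interaction count of strands higher was 1 with total counts, 1 without a count filter and 7 with DESeq2. The replicate numbers gave no sign of pairing: deviations of same-numbered zen17 embryo and L4 libraries correlated at -0.19, -0.27 and -0.07. Samples handled together need not leave such a correlation, so these values cannot decide whether the samples were paired. When the number was entered as a replicate block, 168 zen17 strands were called, 79 higher and 89 lower, and 9 interactions, 1 higher and 8 lower. Depth limits strands near 3 counts, which bear on few of the values given.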

Other observations

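Guide strands with numbers above 1000, most of them known from sequencing alone, passed the count minimum in 36 of 83 cases, and the other guides in 113 of 131. Of the 36, 9 were higher and 17 lower in L4 larvae of *hrpk-1(zen17)*, with a median log2 change of -0.91 (-2.02 without the mir-35 family as scale). Over all 149 tested guides, 53 were higher (35.6%) and 57 lower (38.3%), with a median of -0.17 (-1.43 on the other scale), and the difference was not tested. miR-1834-3p, the fifth member of the mir-58 family, did not reach the count minimum.

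By chromosome, beside the same 35.6% higher and 38.3% lower over all tested guides, 22 of the 49 tested guides on X were higher and 17 lower in L4 larvae. On chromosome II, which holds the mir-35 family, 5 of 26 were higher and 15 lower. Guides whose hairpin lies in an intron of a protein-coding gene numbered 49, with 14 higher and 18 lower, and those between genes 90, with 34 higher and 36 lower. These shares are near those of all tested guides for both locations, and none of these differences was tested.

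Of 21 groups of neighbouring hairpins with at least 2 tested guides, 11 had all guides called in 1 direction. Over all tested guides 35.6% were higher and 38.3% lower, so unrelated guides can form such groups too. The number of groups was not tested. In the group of miR-42-3p, miR-43-3p and miR-44-3p, 1 of the 11, the reads of miR-44-3p cannot be told from those of miR-45-3p. The group of miR-2-3p and miR-71-5p on chromosome I held both a call for a rise (1.69) and a call for a fall (-1.09). miR-2-3p was named after its values were seen, and its call was lost without L4 replicate 2 (adjusted p = 0.0684). The rise of miR-71-5p was not called on the scale without the mir-35 family.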
